A study of Ambystoma mexicanum with 8 samples.

Results

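Titin and nebulin are the giant proteins of the vertebrate sarcomere, and their transcripts are described here across limbs of the axolotl (Ambystoma mexicanum). The transcripts were taken from the study's table of transcripts that differed after repeated amputation, as the entries named titin (TITIN) or nebulin (NEBU) by Swiss-Prot, and each entry was matched to the assembled contig with the same pair of mean expression values. The match gave 21 contigs of 91843 in the assembly, 15 for titin and 6 for nebulin, and each of the 21 entries matched a single contig. The contigs were selected on their measured levels in repeatedly amputated and control limbs, so their higher level after repeated amputation is a description, and the fitted values of that contrast are given without being read as evidence for it.

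RNA was sequenced from the limb stumps of 8 wild-type axolotls of the leucistic strain at 3 days post-amputation. The 4 repeatedly amputated limbs (libraries MR2, MR5, MR6 and MR14) had gone through 5 earlier rounds, had failed to regenerate and were then amputated a 6th time. The 4 control limbs (libraries Control1, Control3, Control4 and Control6) came from siblings matched for age and size and were amputated once. Repeatedly amputated limbs thus differed from control limbs both in their injury history and in being a failed regenerate, and these cannot be told apart.

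In striated muscle the sarcomere is built of interdigitating thick (myosin) and thin (actin) filaments. Titin spans the sarcomere from the Z-disc, where thin filaments are anchored, to the M-band, where thick filaments are cross-linked, and acts as a molecular spring and a scaffold for signalling proteins. Nebulin lies along the thin filament from the Z-disc and stabilises it. Obscurin, another giant protein of the sarcomere, binds titin and links the myofibril to the sarcoplasmic reticulum. These transcripts mark differentiated muscle fibres, which are cut by a limb amputation and remodelled in the stump behind it.

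Libraries held 15596527 to 18437103 expected counts, and 32757 transcripts passed the filter on low counts. Of these, 4 (0.0122%) were called at a false discovery rate (FDR) of 0.05 by edgeR's quasi-likelihood test. The study, also with edgeR at an FDR of 0.05, listed 912 transcripts, among them the titin and nebulin contigs taken here. Which edgeR test the study used, and whether it filtered counts further, is not given. It applied an expression cut to its assembly, where low counts were filtered here, so the numbers of calls are not like for like. Muscle transcripts were found in every library: the summed myogenic regulators (MYOG, SMYD1 and KLHL31) ran from 4.13 to 71.7 CPM in repeatedly amputated limbs and from 0.264 to 6.17 CPM in control limbs, where CPM is counts per 1000000 of the scaled library total. These regulators come from the study's list and were chosen on these libraries, so nothing is read from their difference between groups. MYOG had only 3 counts in Control1 and 3 in Control6, so the lowest control values rest on few counts. The tissue is a mixture, so fewer muscle cells and less muscle RNA per cell cannot be told apart.

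Most of the titin signal lay in a single contig. TR20819 c1_g2_i1 had an effective length (the length over which fragments can start, recovered from the ratio of counts to FPKM) of 33.4 kb, which was rank 1 among the 90544 contigs with a recovered length, whose median was 273 bases. It had 9285, 39348, 1709 and 24223 expected counts in MR2, MR5, MR6 and MR14, against 55, 570, 4026 and 119 in Control1, Control3, Control4 and Control6. MR5 and MR14 were high, MR6 was the lowest repeatedly amputated limb, and Control4 lay above MR6, so the groups overlapped. By counts the contig ranked 31 of all contigs in MR5 and 66 in MR14, against rank 17743 in Control1 and 11885 in Control6. Per length it stood much lower in the same limbs, at rank 1146 by FPKM (fragments per kilobase of contig per 1000000 fragments) in MR5 and 1540 in MR14. Its FPKM was 33.5 ± 29.2 in repeatedly amputated limbs and 1.99 ± 3.19 in control limbs (SD, n = 4 each), and the fitted log2 fold change was 4.12 (SE 1.57).

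The other 14 titin contigs were short pieces of 348 to 2034 bases at a low level. Their mean FPKM lay between 1.23 and 2.05 in repeatedly amputated limbs, and the highest mean in control limbs was 0.155. On average over the repeatedly amputated limbs, each had 2.96% to 6.31% of the FPKM of the long contig. Per length, then, the pieces were all far below the 33.4 kb contig, and together they held 0.748% to 2.09% of the listed titin counts in repeatedly amputated limbs and 0% to 4.80% in control limbs. They fell in 3 Trinity components, groups of contigs that the assembler joined by shared sequence, with 12 of the 15 titin contigs in component TR20819, 2 in TR11734 and 1 in TR23532. The Swiss-Prot hit was human titin for 8 of the 15 and mouse titin for 7, and axolotl has a single TTN gene in the RefSeq annotation.

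Only 2 of the 14 short titin contigs passed the filter on low counts. TR20819 c9_g1_i1 had 15, 137, 2 and 100 counts in MR2, MR5, MR6 and MR14, against 0, 1, 11 and 2 in Control1, Control3, Control4 and Control6, with a fitted log2 fold change of 4.30 (SE 1.41). TR20819 c31_g1_i1 had 10, 76, 4 and 99 counts in MR2, MR5, MR6 and MR14, against 0, 3, 12 and 2 in Control1, Control3, Control4 and Control6, with a fitted log2 fold change of 3.61 (SE 1.25). Both followed the long contig in having their high limbs in MR5 and MR14 and an overlap of MR6 with Control4. TR20819 c25_g1_i1 was at 0 in every control library, against 2, 27, 1 and 16 counts in MR2, MR5, MR6 and MR14. Its absence from control libraries rests on few fragments, since a count of 0 in a library allows up to 3 counts.

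Nebulin was spread over more contigs. TR26390 c2_g1_i1, of 1683 bases, held the most counts of those listed, with 318, 1566, 45 and 817 in MR2, MR5, MR6 and MR14, against 5, 32, 107 and 3 in Control1, Control3, Control4 and Control6. Here too MR5 and MR14 were high and Control4 lay above MR6. Its FPKM was 24.4 ± 23.1 in repeatedly amputated limbs and 1.22 ± 1.62 in control limbs (SD, n = 4 each), and the fitted log2 fold change was 4.39 (SE 1.38). TR26390 c0_g4_i1, of 2591 bases, had 114, 501, 18.02 and 366 counts in MR2, MR5, MR6 and MR14, against 2, 10, 56.2 and 1 in Control1, Control3, Control4 and Control6, with a log2 fold change of 4.01 (SE 1.37). These were the only nebulin contigs to pass the filter.

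The remaining 4 nebulin contigs lay in the same component, TR26390, and all 6 had human nebulin as their Swiss-Prot hit. TR26390 c8_g1_i1, of 184 bases, averaged 10.7 FPKM in repeatedly amputated limbs and 0.681 FPKM in control limbs. TR26390 c6_g1_i1, of 396 bases, averaged 8.22 FPKM in repeatedly amputated limbs and 0.417 FPKM in control limbs. TR26390 c5_g1_i1, of 363 bases, averaged 6.80 FPKM in repeatedly amputated limbs and 0.382 FPKM in control limbs. All 3 were below the leading nebulin contig. TR26390 c1_g1_i1 was the weakest, at 0.901 ± 0.504 FPKM in repeatedly amputated limbs and 0.005 ± 0.01 FPKM in control limbs (SD, n = 4 each), and was the single nebulin contig whose groups did not overlap. It had 15.31, 30.77, 6.18 and 25.28 counts in MR2, MR5, MR6 and MR14, against 0, 0.49, 0 and 0 in Control1, Control3, Control4 and Control6. Such fractional counts arise where fragments are divided between contigs, so its level and its lack of overlap are uncertain.

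**Figure D1:**
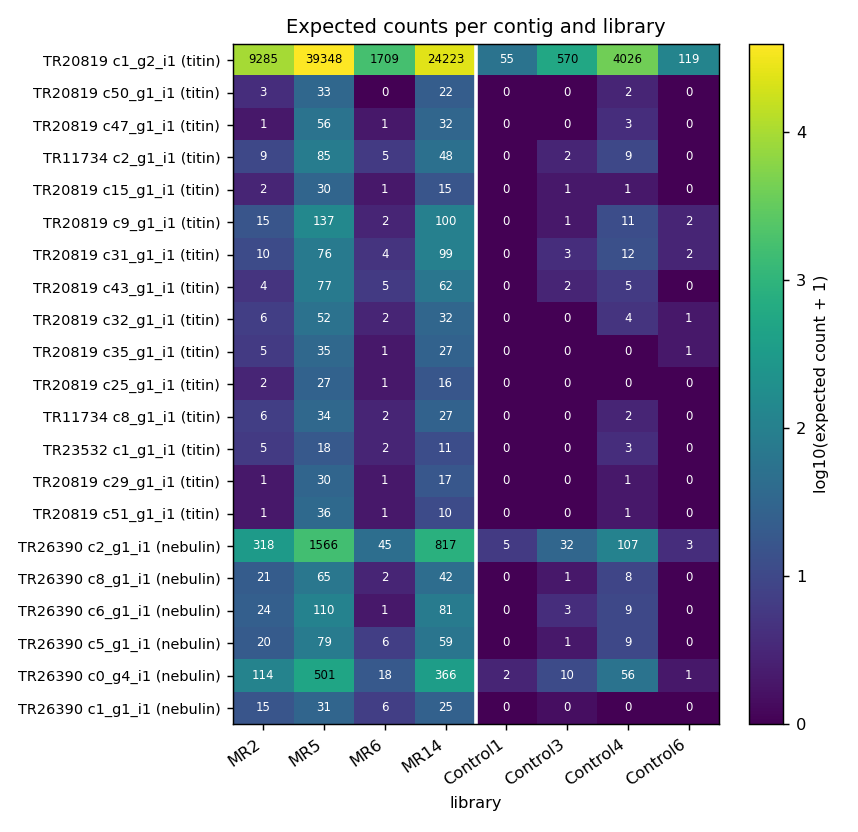
Expected counts of the 15 titin and 6 nebulin contigs (rows) in the 4 repeatedly amputated (MR) and 4 control libraries (columns), printed in each cell and coloured on a log10(count + 1) scale. The long titin contig TR20819 c1_g2_i1 holds between 1709 and 39348 counts in repeatedly amputated limbs, and most other rows are near 0 in Control1 and Control6.

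The same limbs stood at the ends of each group for most of the 21 contigs. In unscaled counts MR5 was the highest repeatedly amputated library for 20 of the 21 contigs (MR14 was higher for TR20819 c31_g1_i1), MR6 alone was the lowest for 17, and Control4 alone was the highest control library for 17. The contigs are pieces of titin and nebulin and are not independent. How often these limbs stood at the ends over all transcripts was not computed, so nothing is read from these numbers. Control1 had 0 counts for 18 of the 21 contigs and Control6 for 14, so in these limbs the pieces were at the limit of detection. In CPM the groups did not overlap for 7 of the 21 contigs, 6 of titin and 1 of nebulin, against 3.09% of all transcripts with a count. For 5 of these 7, all of titin, the lowest repeatedly amputated and the highest control library had equal counts and differed only by library scaling. In unscaled counts just TR20819 c25_g1_i1 and TR26390 c1_g1_i1, 2 of the 21, were free of overlap, against 0.987% of all transcripts with a count. The study chose the contigs on this contrast, so nothing is read from these differences. None of the 7 passed the filter, and all 5 contigs that passed had groups that overlapped, where 3.28% of all tested transcripts did not overlap and were higher in repeatedly amputated limbs.

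Of the 21 contigs, 5 passed the filter, and 0 of these had an FDR below 0.05 in edgeR's quasi-likelihood test, where 0.00611% of all tested transcripts were called higher in repeatedly amputated limbs. All 5 had an unadjusted p below 0.05 with a higher level in repeatedly amputated limbs, as had 6.47% of all tested transcripts, and their FDR ran from 0.338 to 0.392. DESeq2's Wald test called 2 of the 5, where it called 1.74% of all tested transcripts higher. The exact test of edgeR, which called 0.885% of tested transcripts higher, called 0 of the 5, as did limma-voom. The median log2 fold change over the 5 was 4.12, beside -0.01 over all tested transcripts. These fits reuse the libraries on which the contigs were chosen, and the short contigs passed the filter through their repeatedly amputated libraries, so nothing is read from these counts.

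Summed over its 15 contigs, titin made up 563, 2518, 103 and 1584 CPM in MR2, MR5, MR6 and MR14, against 2.91, 30.4, 233 and 7.36 CPM in Control1, Control3, Control4 and Control6. The mean was 1192 ± 1079 CPM in repeatedly amputated limbs and 68.5 ± 111 CPM in control limbs (SD, n = 4 each). On the log2 scale the group means differed by 5.13, with SDs of 2.05 among repeatedly amputated limbs and 2.75 among control limbs. The spread within each group was therefore wide: MR5 alone held 52.8% of the titin CPM of its group and Control4 held 85.2% of that of the control limbs. The highest and lowest of the 8 limbs differed 866-fold, and titin took 0.236% of all counts in MR5. MR6 had 0.441 times the titin level of Control4. Without MR6 and Control4 together, an exclusion chosen after the data were seen, the log2 difference was 7.24.

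Nebulin summed over its 6 contigs made up 30.9, 148, 4.63 and 89.0 CPM in MR2, MR5, MR6 and MR14, against 0.370, 2.49, 10.8 and 0.236 CPM in Control1, Control3, Control4 and Control6. The mean was 68.1 ± 63.8 CPM in repeatedly amputated limbs and 3.48 ± 5.0 CPM in control limbs (SD, n = 4 each), and the log2 group means differed by 4.90 (SD 2.21 among repeatedly amputated and 2.55 among control limbs). The order of the limbs was that of titin except that Control1 and Control6 changed places, and their nebulin sums rested on 7 and 4 counts. MR5 held 54.3% of the nebulin CPM of repeatedly amputated limbs and Control4 77.7% of that of control limbs.

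**Figure D2:**
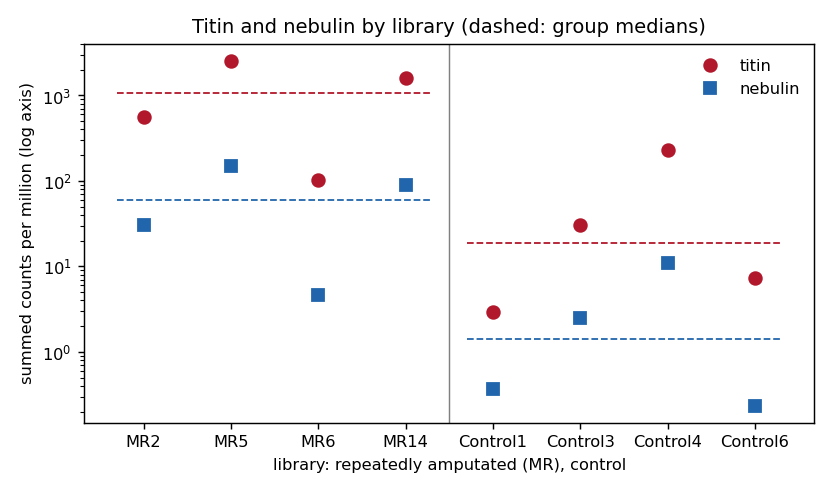
Summed CPM of the titin contigs (circles) and nebulin contigs (squares) in each library on a log axis, repeatedly amputated limbs at the left and control limbs at the right, with dashed lines at the group medians. Titin spans 2.91 to 2518 CPM and nebulin 0.236 to 148 CPM, the 2 genes move up and down together, and Control4 lies above MR6 for both.

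Titin and nebulin varied together from limb to limb. After subtraction of the group means, the correlation of their log2 CPM was 0.97 (Pearson) and 0.93 (Spearman) over the 8 libraries. What part the muscle content of each limb has in this was not tested. Without subtraction the Pearson correlation was 0.99, and it was 0.99 without the 2 libraries farthest from the titin median. The slope of log2 nebulin on log2 titin was 0.95.

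The titin to nebulin ratio was nearly the same in the repeatedly amputated limbs. In counts per kilobase it was 2.65, 2.47, 3.22 and 2.58 in MR2, MR5, MR6 and MR14, against 1.14, 1.77, 3.13 and 4.54 in Control1, Control3, Control4 and Control6. The mean was 2.73 ± 0.336 in repeatedly amputated limbs and 2.64 ± 1.51 in control limbs (SD, n = 4 each). The log2 difference was 0.23, above the SD of 0.169 among repeatedly amputated limbs and below that of 0.880 among control limbs. Thus, while titin itself differed 24.5-fold among repeatedly amputated limbs, its ratio to nebulin stayed between 2.47 and 3.22. The control limbs at the ends of the range were those with the fewest nebulin counts, and their exact 95% counting intervals were wide, at 0.518 to 2.97 for Control1 and 1.73 to 16.9 for Control6. In the 6 libraries with at least 40 nebulin counts the ratio ran from 1.77 to 3.22. That cut was not part of the planned comparison, and it leaves out Control1 and Control6, the limbs at the ends of the range. Not divided by length, the ratio of summed counts was 18.8 ± 2.31 in repeatedly amputated limbs and 18.2 ± 10.4 in control limbs (SD, n = 4 each). The mean FPKM over contigs, in which every short piece weighs as much as the long contig, gave a ratio of 0.412 ± 0.0819 in repeatedly amputated limbs and 0.611 ± 0.666 in control limbs (SD, n = 4 each).

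The table from which the contigs came held only part of the assembled contigs of these genes. The Trinity components of the titin contigs had 69 further contigs, 66 of them not in the table, and those of nebulin had 15, of which 13 were not in the table. These contigs have no protein name in the files used here, and their membership of a component is the only link to titin or nebulin. For titin the listed contigs held 94.8% of the component counts in repeatedly amputated limbs and 93.7% in control limbs. For nebulin they held only 29.6% in repeatedly amputated limbs and 26.8% in control limbs.

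The largest part of the nebulin component lay in a pair of long isoform contigs outside the table. TR26390 c0_g1_i1, of 6717 bases, had 377, 2134, 101 and 1138 counts in MR2, MR5, MR6 and MR14, against 0.01, 41.7, 134 and 0.02 in Control1, Control3, Control4 and Control6. TR26390 c0_g1_i2, of 6710 bases, had 484, 1692, 45.5 and 1003 counts in MR2, MR5, MR6 and MR14, against 1.99, 8.33, 216 and 5.98 in Control1, Control3, Control4 and Control6. Together they held 47.4% of the component's counts over the 8 libraries. RSEM, which estimated the counts, divides fragments that both isoforms could have produced, so the split between them is uncertain and their sum is the firmer value. The fitted log2 fold change was 4.58 (SE 1.60) for c0_g1_i1 and 3.94 (SE 1.59) for c0_g1_i2, beside 4.39 and 4.01 for the listed nebulin contigs that were tested.

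All 69 further titin contigs and all 15 further nebulin contigs had more summed counts in repeatedly amputated limbs than in control limbs. Of these, 3 of titin and 2 of nebulin were in the table and so were chosen on this contrast. Many rest on few counts, and pieces of the same component are not independent. The share of all transcripts with more summed counts in repeatedly amputated limbs was not computed, so nothing is read from this count. Of those that passed the filter, all 6 of titin and all 7 of nebulin had a log2 fold change above 0, with medians of 3.53 and 3.79, where 49.2% of all tested transcripts were above 0. They passed the filter mostly through their repeatedly amputated libraries, so nothing is read from this direction. In CPM the groups did not overlap for 6 of the 69 titin contigs, 3 of which had equal counts at the edge of both groups, and for 0 of the 15 nebulin contigs, beside the 3.09% of all transcripts with a count. Over whole components the titin to nebulin ratio per kilobase was 1.93, 1.92, 2.33 and 2.02 in MR2, MR5, MR6 and MR14, against 2.35, 1.65, 2.04 and 3.11 in Control1, Control3, Control4 and Control6. Its mean was 2.05 ± 0.192 in repeatedly amputated limbs and 2.29 ± 0.621 in control limbs (SD, n = 4 each). The sign of the group difference thus turned when the contigs outside the table were counted. Here the log2 difference was -0.12, with SDs of 0.130 among repeatedly amputated and 0.385 among control limbs.

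**Figure D3:**
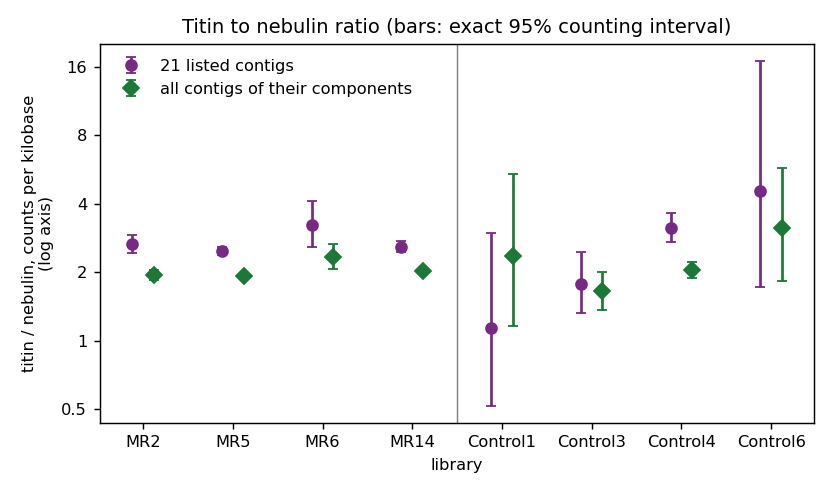
Titin to nebulin ratio in counts per kilobase (log axis) for each library, for the 21 listed contigs (circles) and for all contigs of their components (diamonds), with exact 95% counting intervals. Repeatedly amputated limbs lie between 2.47 and 3.22 for the listed contigs, and the intervals are widest in Control1 and Control6.

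**Figure D4:**
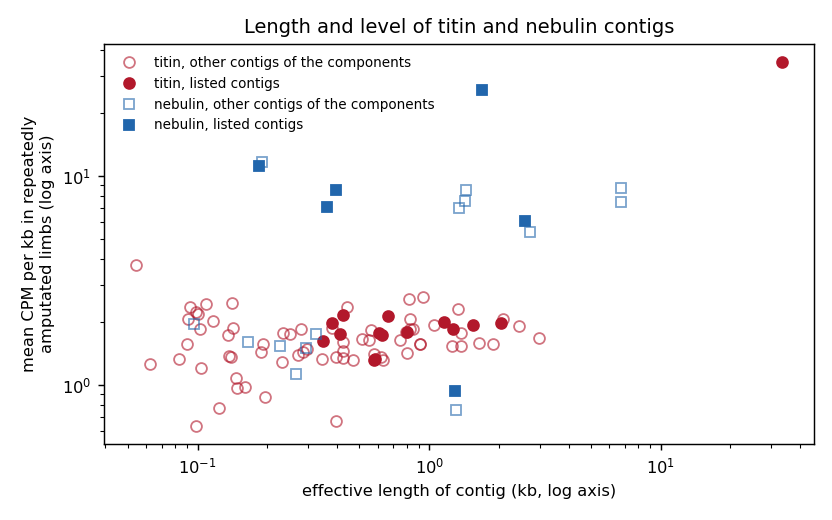
Effective length (kb) against mean CPM per kilobase in repeatedly amputated limbs, both on log axes, for listed contigs (filled) and other contigs of the same components (open) of titin (circles) and nebulin (squares). A single titin contig of 33.4 kb stands at the upper right, the other titin contigs lie far below it, and the long nebulin contigs outside the table lie below the leading nebulin contig.

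The share of titin outside its long contig differed between limbs. Over whole components it was 3.08% in MR2 (exact 95% binomial interval 2.74 to 3.45), 6.93% in MR5 (6.69 to 7.18), 5.63% in MR6 (4.62 to 6.80) and 8.25% in MR14 (7.92 to 8.59). In control limbs it was 6.78% in Control1 (1.88 to 16.5), 4.36% in Control3 (2.87 to 6.33), 8.12% in Control4 (7.33 to 8.97) and 8.46% in Control6 (4.30 to 14.6). MR2 thus had the lowest share of the 8 limbs, and its interval lay below those of the other repeatedly amputated limbs. For nebulin the share outside TR26390 c2_g1_i1 was 80.2% to 83.9% in repeatedly amputated limbs and 44.4% to 86.1% in control limbs, where the lowest value rested on 9 counts. That contig leads only among the listed nebulin contigs. The long isoform contigs outside the table each had more summed counts in repeatedly amputated limbs, so this share is not like that of titin. Intervals cover counting error only.

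Obscurin, singled out after its values were seen, kept the most even proportion to titin among repeatedly amputated limbs, though not among control limbs. Of 58 muscle genes of the table, grouped as Z-disc, M-band, titin-linked signalling, thin filament, thick filament, calcium handling and myogenic regulators, it had the narrowest range of titin per gene among repeatedly amputated limbs. Titin per obscurin, in counts per kilobase, was 8.75, 8.80, 9.21 and 8.98 in MR2, MR5, MR6 and MR14, against 3.94, 8.72, 10.1 and 17.9 in Control1, Control3, Control4 and Control6. The highest and lowest repeatedly amputated limbs differed 1.05-fold, which is the smallest range picked out of 58. Obscurin had only 54 counts in MR6, and counting error on so few counts is wider than this range. Its 8 listed contigs held 306, 1303, 54 and 789 counts in MR2, MR5, MR6 and MR14, against 4, 19, 116 and 2 in Control1, Control3, Control4 and Control6, so the ratios of Control1 and Control6 rest on few counts. The next most even of the 58 was MYH4, a fast-type myosin heavy chain, at 0.119, 0.150, 0.167 and 0.116 in MR2, MR5, MR6 and MR14, against 0.0854, 0.122, 0.187 and 0.112 in Control1, Control3, Control4 and Control6. Nebulin was not among the 58, and titin per nebulin, at 2.47 to 3.22 in repeatedly amputated limbs, was more even than titin per MYH4. Myosin heavy chains are close paralogs whose shared fragments RSEM divides, so the MYH4 level is uncertain.

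Genes most like titin and nebulin in their variation among limbs were muscle genes too. Likeness was the Pearson correlation of log2 CPM over the 8 libraries after subtraction of group means, among 117 named genes of the table, whose median correlation was 0.41 with titin and 0.47 with nebulin. The 5 most like titin were MYH4 (0.99), telethonin (0.98), the small GTPase RAD (0.98), filamin-C (0.97) and the muscle LIM protein CSRP3 (0.97). Telethonin caps titin at the Z-disc, filamin-C cross-links actin there, and CSRP3 is a Z-disc protein that binds telethonin. The 5 most like nebulin were filamin-C (0.99), CSRP3 (0.98), the intermediate filament protein desmin (0.98), RAD (0.98) and MYH4 (0.97). Correlations above 0.9 were found for 18 genes with titin and 22 with nebulin.

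Transcripts of other sarcomere proteins had higher mean levels in repeatedly amputated limbs too. In edgeR's quasi-likelihood test 0 of their contigs were called, beside 0.0122% of all tested transcripts. The study chose these genes on these libraries, so nothing is read from their direction, where 49.2% of all tested transcripts were above 0. Of the Z-disc list (among them XIRP1, desmin, telethonin and filamin-C), all 19 tested contigs of 27 had a log2 fold change above 0, with a median of 4.13, and the summed level was 148 to 4235 CPM in repeatedly amputated limbs and 15.8 to 341 CPM in control limbs. Of the M-band list (M-protein, obscurin and myomesin-3), which ties thick filaments to titin, 4 of 15 contigs were tested and all 4 were above 0, with a median of 4.12. The titin-linked signalling list held ANKR1 and FHL1, which in mammals bind the spring region of titin, and TRI63 (MuRF1), a ubiquitin ligase that binds titin near the M-band. All 3 were above 0, with a median of 3.85, and the list summed to 60.1 to 1002 CPM in repeatedly amputated limbs and 15.3 to 107 CPM in control limbs.

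The filaments themselves gave like values. For the thin filament (tropomyosins, troponins, leiomodins, the nebulin relative NRAP and others) all 13 tested contigs of 14 were above 0, with a median of 3.91. For the thick filament (myosin heavy and light chains and myosin-binding proteins) all 21 tested of 36 were above 0, with a median of 4.31. For calcium release and uptake (SERCA1, ryanodine receptors and calsequestrin-2 among others) all 7 tested of 17 were above 0, with a median of 4.20, and for the myogenic regulators all 4 tested of 5, with a median of 4.18. In each of these 7 lists every tested contig had an unadjusted p below 0.05, where 6.47% of all tested transcripts had one and were higher, but the study chose all of them on these libraries, so nothing is read from the difference. In each the summed level of Control4 lay above that of MR6.

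**Figure D5:**
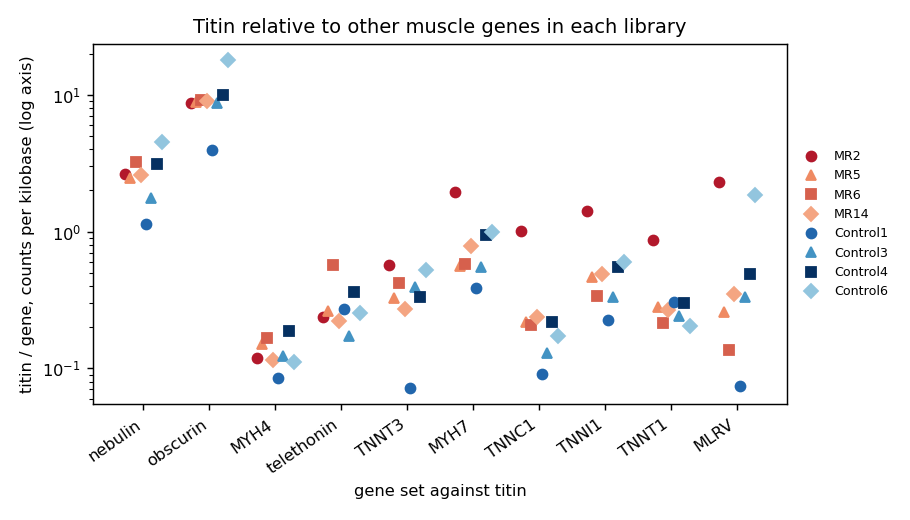
Titin divided by each of 10 other muscle genes, in counts per kilobase (log axis), in each library, with repeatedly amputated limbs in red tones and control limbs in blue tones. The ratio to obscurin lies between 8.75 and 9.21 in the 4 repeatedly amputated limbs, and MR2 lies apart from the other repeatedly amputated limbs for MYH7, TNNC1, TNNI1, TNNT1 and MLRV.

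Markers of other cells also differed between the limbs. Cartilage genes (collagens II and IX, aggrecan and chondromodulin) summed to 20.5, 185, 11.6 and 18.9 CPM in MR2, MR5, MR6 and MR14, against 1.35 to 2.27 CPM in control limbs, with no overlap. Immunoglobulin genes summed to 159 to 292 CPM in repeatedly amputated limbs and 539 to 923 CPM in control limbs, also with no overlap. All 8 of their contigs had a log2 fold change below 0, with a median of -2.64, where 49.2% of all tested transcripts were above 0. Of the epidermal list 3 of 5 tested contigs (the laminin chains LAMA3 and LAMB3 and transglutaminase 1) were above 0 and the keratins K2C5 and K2C6A below 0, while transglutaminase 3 was at 0 in every repeatedly amputated limb and in Control4. The summed epidermal level was 400.4 to 1690 CPM in repeatedly amputated limbs and 1067 to 4019 CPM in control limbs. The study chose these marker genes on these libraries too, so nothing is read from their direction or their lack of overlap. Whether these marker differences bear on the titin and nebulin levels was not tested.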

How the data were processed

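Paired-end reads from TruSeq v2 libraries of 4 repeatedly amputated and 4 control limbs were assembled de novo by the authors with Trinity, annotated with Trinotate and quantified per contig with RSEM. The first assembly was reduced by the authors with an FPKM cut of 2. The deposited tables used here hold 91843 contigs, of which 90919 had a count, so they include contigs below that cut. The submitters' processing notes also name CASAVA 1.8.2. The authors deposited RSEM expected counts without normalization, and a second table of FPKM, TMM-scaled by them across libraries. Whether counting used strand is not given in the sources used here. The 8 columns name a group and a number but no sample, so each was assigned to its group only. The methods describe separate animals.

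Table entries were matched to contigs by both mean FPKM + 1 values within 1e-06: of 912 entries, 892 matched 1 contig and 20 matched 2. Expected counts were rounded to whole numbers, filtered with filterByExpr, scaled by TMM and compared with the quasi-likelihood F-test of edgeR 4.0.16 (R 4.3.3) over all 32757 transcripts with Benjamini-Hochberg adjustment. Alternatives were edgeR's exact test, DESeq2 1.42.0, limma 3.58.1, other filters and scalings and each library left out. Effective lengths were recovered as counts over FPKM, assuming scaling factors with a geometric mean of 1, and are approximate in absolute scale. They varied between libraries by a median of 0.0721% (coefficient of variation, 13999 contigs). Intervals are exact 95% binomial intervals and cover counting error only.

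Named genes are every titin and nebulin contig, the 5 genes most like each gene (at least 10 counts in every library) and up to 4 high members of each comparison list. Further list members are named as examples of their list, as cell markers, or for a ratio to titin picked out in these data. The members and lists were chosen with earlier results of these data known, and 1 entry of the lists is not reported here. No sequence of a contig was used here.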

Additional observations from a re-analysis of the deposited data

Results flagged for a closer look

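Each group of 4 libraries was searched for a library far from the other 3 (Dixon's test at 95%), for the summed levels, the 21 contigs, the share outside the leading contig and the ratio of titin to 10 muscle genes. Of 77 groups 20 had such a library. For 8 of the 20 the other 3 libraries were at 0, where any count at all meets the criterion, so these 8 say only where the counts were. The test's nominal rate of 1 in 20 holds for normally distributed values. CPM and ratios were searched here without a log transform and are skewed, so the rate by chance is not known. The 10 genes were chosen after their values were seen, and contigs of the same gene are not independent.

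Control4 stood high among control limbs. Its summed titin was 233 CPM, against 2.91 to 30.4 CPM in the other control limbs, and its long titin contig TR20819 c1_g2_i1 was at 230 CPM, against 2.91 to 29.9 CPM. The same limb held the only control counts of several titin contigs, with 0.114 CPM for TR20819 c50_g1_i1 and for TR11734 c8_g1_i1, 0.172 CPM for TR20819 c47_g1_i1 and for TR23532 c1_g1_i1, and 0.0572 CPM for TR20819 c29_g1_i1 and for TR20819 c51_g1_i1, which are 1 to 3 counts each. Among nebulin contigs it stood high for TR26390 c8_g1_i1 (0.457 CPM), c5_g1_i1 (0.515 CPM) and c0_g4_i1 (3.22 CPM). Control6 held the only control count of TR20819 c35_g1_i1, at 0.0589 CPM, and Control3 the only control signal of TR26390 c1_g1_i1, at 0.0257 CPM. Control4 also had the highest titin per NRAP, 2.14 in counts per kilobase, against 0.511 to 0.775 in the other control limbs.

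MR2 stood apart from the other repeatedly amputated limbs in titin relative to a set of contractile genes, while its titin per nebulin (2.65) and per MYH4 (0.119) lay within their range and its titin per obscurin was 8.75, against 8.80 to 9.21. In counts per kilobase, titin per MYH7 (a slow-type myosin heavy chain) was 1.94 in MR2, against 0.560 to 0.779 in MR5, MR6 and MR14. Titin per MLRV (a regulatory myosin light chain) was 2.31, against 0.137 to 0.348. Titin per TNNC1 (troponin C) was 1.01, against 0.206 to 0.237, titin per TNNI1 (troponin I of slow fibres) was 1.41, against 0.338 to 0.486, and titin per TNNT1 (troponin T of slow fibres) was 0.873, against 0.214 to 0.280. MR6 had the highest titin per telethonin, 0.570, against 0.220 to 0.264 in the other repeatedly amputated limbs.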

How the results depend on the processing

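The count of transcripts with an FDR below 0.05 was 4, and it was 387 by the exact test of edgeR, 768 by the Wald test of DESeq2, 2 by voom in limma, 21 with no filter, 9 with at least 10 summed counts, 11 with limma on log2(FPKM + 1), 10 on log2(FPKM + 0.1), and 2 to 14 with each library left out. The count of titin and nebulin contigs called was 0, 2 with DESeq2's Wald test and 0 to 0 with each library left out. The titin log2 difference of 5.13 was 4.21 to 6.32 with each library left out and 7.24 without MR6 and Control4 together. That of nebulin, 4.90, was 4.10 to 5.94 with each library left out and 6.94 without both. The log2 titin to nebulin ratio between groups, 0.23, was -0.039 from mean FPKM, -0.12 over whole components and 0.37 over leading contigs only, and -0.11 (without Control1) to 0.56 (without Control6) with each library left out. The cause of these moves was not tested. The component, leading-contig and paired-exclusion settings were chosen after seeing the data. Titin and the ratio without the leading contigs could not be given on the log2 scale, because Control1 was at 0. Per kilobase, that ratio was 0.152, 0.390, 0.356 and 0.382 in MR2, MR5, MR6 and MR14. In Control1, Control3, Control4 and Control6 it was 0, 0.246, 0.278 and 2.54. The level of the ratio given above thus depends on the leading contigs. No paired analysis was possible because the columns carry no replicate numbers that both groups share through an animal, litter or day. The limits are the few counts of nebulin and of the short titin contigs in control limbs, where a library's 0 allows up to 3 counts, 4 limbs a group with overlapping levels, and contigs picked on the contrast described.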

Other observations

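Over the 58 muscle genes set against titin, MR2 had the highest titin per gene of the repeatedly amputated limbs for 37 genes, and for 13 it was over 2 times the next limb. Those 13 were the Z-disc genes ACTN2 and MYOZ2, the troponins TNNC1, TNNI1 and TNNT1, the myosin genes MYH7, MYH7B, MYSC, MLRB, MLRV, MLEC and MYL4, and the calcium pump SERCA1. They hold both slow-type genes and SERCA1, the pump of fast fibres. Some of the 13 rest on few counts in MR2, with 15 for MYH7B, 16 for MYL4, 28 for MYSC and 34 for MYOZ2. The number of genes over 2 times the next limb is therefore subject to counting error. MR6 was over 2 times the next limb for 2 genes, telethonin and XIRP1, and MR5 and MR14 for 0. On the low side, MR6 had the lowest titin per gene for 23 genes, and the next limb was over 2 times higher for 7 of them, as it was for 1 gene in MR14. MR2 was also the limb with the lowest share of titin component counts outside the long contig, 3.08%. Myosin genes share fragments that RSEM divides, and the genes share 1 titin value, so they are not independent.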
